A study of Mus musculus with 9 samples.

Results

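F-box proteins and the cullin ubiquitin ligases they belong to were followed as 61 genes, out of 12393 genes that had a probe set naming them alone. Members were all genes on the array whose symbols belong to the Fbxl, Fbxo, Fbxw, Cul, Cops, Cand and Dcun1d series, with Skp1, Skp2, Btrc, Rnf7, Nedd8, Ddb1 and Ddb2. They had 105 probe sets among the 22626 analysed, and each gene was read by the probe set that was brightest on average over all arrays. The 61 genes held 38 F-box proteins (7 with leucine-rich repeats, 9 with WD40 repeats and 22 with other domains) and 7 cullins. The others were the RING subunit Rnf7, the adaptors Skp1 and Ddb1 grouped with the receptor Ddb2, Nedd8 with 2 Dcun1d proteins, Cand1 and 8 subunits of the COP9 signalosome. Rbx1 matched the rule, but its 4 probe sets also named the pseudogene Rbx1-ps, so it was not a member, and Cul5 had no member probe set.

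RNA came from MLP29, a line of mouse liver progenitor cells, on 9 Affymetrix Mouse430A_2 arrays, with 1 array for each of 3 conditions in each of 3 independent experiments. The conditions were cells given 10 µg/ml of the function-blocking anti-α5β1 integrin antibody BMB5, cells given 20 ng/ml of HGF/SF1 (the ligand of the receptor Met, which makes these cells scatter), and untreated cells. All cells, untreated ones included, had first been kept in 0.1% serum for at least 16 h, and a figure legend of the study that shows expression changes puts both treatments at a day, a length that the labels and the methods for the arrays leave out. The labels name no control antibody, and the array methods call the control cells untreated, while the general culture methods list a control IgG among the additions to control experiments. If the untreated cells were given none, the blockade of the integrin and the addition of an antibody cannot be told apart. Every value is from 1 cell line.

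Cullin ligases attach ubiquitin to proteins and thereby mark most of them for the proteasome. A cullin holds a RING subunit at one end, which brings in the ubiquitin-carrying enzyme, and at the other end an adaptor and a receptor that picks the substrate; with Cul1 the adaptor is Skp1 and the receptor is an F-box protein. Nedd8 attached to the cullin switches the ligase on, the COP9 signalosome takes Nedd8 off again, and Cand1 exchanges the receptors on bare cullins.

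Values are log2 summaries of probe set brightness, and brightness does not rank transcripts of different genes. The 9 array medians lay between 5.91 and 6.08. Of the 61 members, 54 were brighter than the median of all probe sets, and 7 were not (Fbxo2, Fbxo15, Fbxo16, Fbxo17, Fbxo43, Fbxw14 and Cul9). Of 7 measured markers of liver progenitor and biliary cells, 4 were brighter than that median (Krt19, Cd24a, Cdh1 and Krt7) and Epcam, Prom1 and Sox9 were not, with list means of 8.09 to 8.29 on antibody arrays, 8.12 to 8.21 on HGF/SF1 arrays and 8.11 to 8.28 on untreated arrays. Of 7 markers of hepatoblasts and hepatocytes, 3 were brighter (Krt8, Krt18 and Hnf4a) and Alb, Afp, Ttr and Apoa1 were not, with list means of 7.68 to 7.89 on antibody arrays, 7.74 to 8.19 on HGF/SF1 arrays and 7.76 to 8.06 on untreated arrays. None of 8 fibroblast markers was brighter than the median, with list means of 4.07 to 4.12 on antibody arrays, 4.13 to 4.19 on HGF/SF1 arrays and 4.02 to 4.21 on untreated arrays. Of 10 macrophage and leukocyte markers, 2 were brighter than the median. Cd68 alone passed an unadjusted p of 0.05 in limma (log2 fold change 2.60, antibody against untreated). That was 10% of the list, beside 12.6% of all genes. In limma 0 genes of the list passed a Benjamini-Hochberg adjusted p of 0.05. The list means were 5.38 to 5.47 on antibody arrays, 5.23 to 5.29 on HGF/SF1 arrays and 5.18 to 5.22 on untreated arrays. Ptprc (3.25), Tyrobp (3.69) and Adgre1 (4.26) are examples of dim genes in that list that did not pass. They do not stand for the whole list, and the part of such cells in the results was not tested.

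In antibody-treated cells, 8 members were lower and 3 higher than in untreated cells at an unadjusted p under 0.05 in limma, which is what called means here. The lower ones were Fbxo9, Fbxl15, Cul4b, Fbxl14, Fbxo25, Fbxl20, Fbxl6 and Fbxo45, and the higher ones were Fbxo3, Fbxo31 and Cops2. These 11 were 18% of the 61 members, beside a background of 12.6% (1562 of 12393 genes), with 7.92% of all genes lower and 4.68% higher. No member passed a Benjamini-Hochberg adjusted p under 0.05 over the 22626 probe sets, where the smallest was 0.217 by limma, and 5 of the 12393 genes did (0.0403%). The median log2 fold change was -0.07 over the members and -0.00 over all genes. The RNA is from bulk cultures, where fewer cells with a transcript and less of it per cell cannot be told apart. The antibody and untreated arrays did not overlap for 14 members (23%), beside 15% of all genes. With the experiment as a block, 15 members were called (24.6%, 6 higher and 9 lower, all 11 included), beside 18.5% of all genes, and the smallest adjusted p was 0.0802 by limma.

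**Figure D1:**
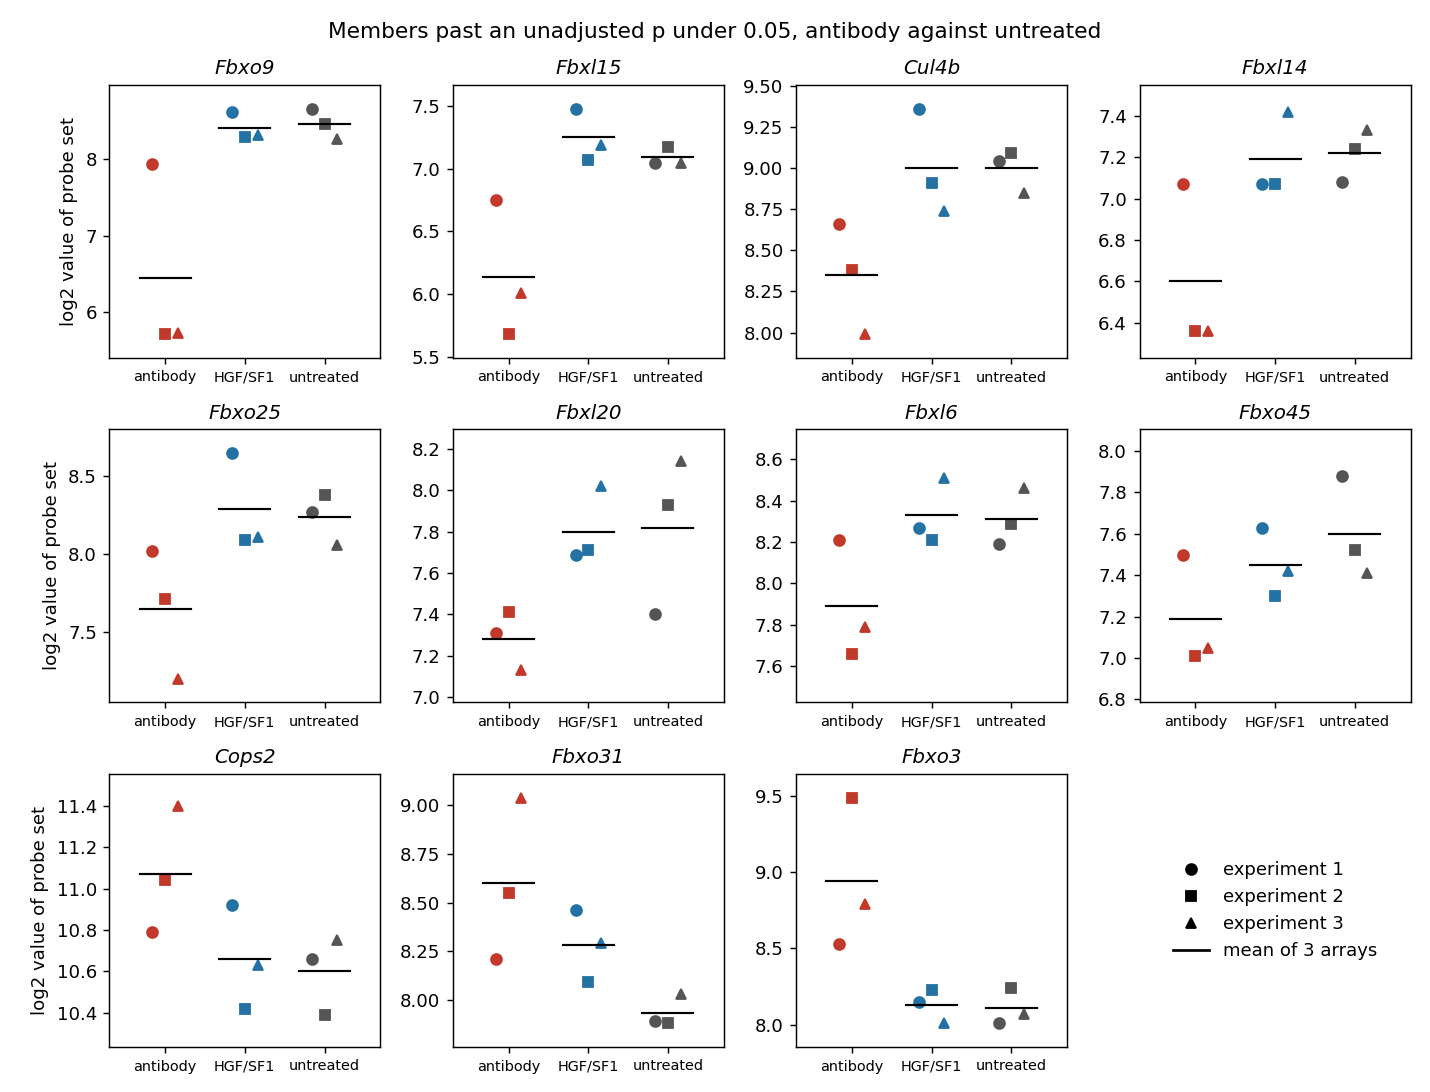
Log2 values (vertical axis, a scale of its own in each panel) of the 11 members called between antibody-treated and untreated cells, by condition (horizontal axis), with the marker shape giving the experiment and the line the mean of 3 arrays. Fbxo9 lay at 5.71 and 5.72 in experiments 2 and 3 of the antibody and at 7.94 in experiment 1, below all untreated arrays, and the HGF/SF1 arrays lay near the untreated ones for most genes.

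The largest difference was that of Fbxo9, an F-box protein that recognises the mTOR-associated proteins Telo2 and Tti1 in human cells. Its log2 values were 7.94, 5.71 and 5.72 in experiments 1, 2 and 3 with the antibody, 8.61, 8.29 and 8.31 with HGF/SF1, and 8.66, 8.46 and 8.26 in untreated cells. All antibody arrays were below all untreated and HGF/SF1 arrays, and experiment 1 stood closest to them. Fbxo9 was 4.03-fold lower than in untreated cells (log2 fold change -2.01, SE 0.53, adjusted p = 0.217 by limma). The call of Fbxo9 was kept without each single array and lost without the whole of experiment 2 or 3 (log2 fold change -2.75 to -1.64 over the alternatives). Its dimmer probe set read 5.01, 4.42 and 4.36 with the antibody, 5.91, 5.85 and 6.34 with HGF/SF1, and 5.85, 5.87 and 6.18 untreated. Here too the antibody arrays lay apart from the others, the log2 fold change being -1.37 (SE 0.21, adjusted p = 0.122 by limma).

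Since Fbxo9 differed most, the 250 bases before its start sites are shown, as RefSeq places them on GRCm38.p6, in lower case, with matches to CCGGAA (the core of sites bound by ETS factors) or CCAAT (the CCAAT box) on either strand in capitals. Its first window is chr9:78109066-78109315 and its second chr9:78108657-78108906, both on the minus strand. The first holds CCGGAA on the opposite strand, the second holds CCAAT, and neither holds GGGCGG, the core of sites bound by Sp1.
Fbxo9 first window: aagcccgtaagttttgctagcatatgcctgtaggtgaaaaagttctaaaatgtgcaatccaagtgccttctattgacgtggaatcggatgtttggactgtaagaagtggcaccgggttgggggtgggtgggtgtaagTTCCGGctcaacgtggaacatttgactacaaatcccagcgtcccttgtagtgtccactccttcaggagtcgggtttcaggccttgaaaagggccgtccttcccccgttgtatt
Fbxo9 second window: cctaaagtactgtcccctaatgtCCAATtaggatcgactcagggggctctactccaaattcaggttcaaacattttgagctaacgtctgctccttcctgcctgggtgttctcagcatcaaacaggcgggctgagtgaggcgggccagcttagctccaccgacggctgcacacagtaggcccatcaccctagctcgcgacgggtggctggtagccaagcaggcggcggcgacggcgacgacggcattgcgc

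F-box proteins with leucine-rich repeats held 4 of the lower members. Of these 7 genes 4 were called, all lower (57.1%), beside 7.92% of all genes, with a median log2 fold change of -0.49. The other 3 were Skp2 (-0.49), Fbxl12 (0.14) and Fbxl8 (0.21). This share is the highest among the groups of members by role and rests on 7 genes. Its difference from the share of all genes was not tested. Fbxl15, which recognises the ubiquitin ligase Smurf1 in human cells, read 6.75, 5.68 and 6.01 with the antibody, 7.48, 7.07 and 7.19 with HGF/SF1, and 7.05, 7.17 and 7.05 untreated. The antibody arrays were below all others, and Fbxl15 was 1.92-fold lower than in untreated cells (log2 fold change -0.94, SE 0.25, adjusted p = 0.217 by limma). Fbxl14, which recognises the transcription factor Snail, read 7.07, 6.36 and 6.36 with the antibody, 7.07, 7.07 and 7.42 with HGF/SF1, and 7.08, 7.24 and 7.33 untreated. Its antibody array of experiment 1 was as high as the lowest HGF/SF1 arrays and just under the lowest untreated one (log2 fold change -0.62, SE 0.20, adjusted p = 0.288).

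Fbxl20, known in mouse neurons for turning over a protein of the synapse, read 7.31, 7.41 and 7.13 with the antibody, 7.69, 7.71 and 8.02 with HGF/SF1, and 7.40, 7.93 and 8.14 untreated. It was below all HGF/SF1 arrays, while the untreated array of experiment 1 lay among the antibody arrays (log2 fold change -0.54, SE 0.20, adjusted p = 0.331 against untreated). Fbxl6 read 8.21, 7.66 and 7.79 with the antibody, 8.27, 8.21 and 8.51 with HGF/SF1, and 8.19, 8.29 and 8.46 untreated, with overlap in experiment 1 (log2 fold change -0.43, SE 0.16, adjusted p = 0.354). Leaving out 1 array at a time ended the call of Fbxl14 (without the antibody array of experiment 2 or 3), of Fbxl20 (without the untreated array of experiment 2 or 3, or the antibody array of experiment 3) and of Fbxl6 (without the antibody or untreated array of experiment 2 or 3). Over all 19 alternatives the log2 fold change ran from -0.92 to -0.45 for Fbxl14, from -0.77 to -0.30 for Fbxl20 and from -0.65 to -0.30 for Fbxl6. Fbxl15 kept its call without any single array and lost it without the whole of experiment 2 or 3 (-1.26 to -0.67 over the alternatives).

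Skp2, the receptor of the cell cycle inhibitor p27, had 6 probe sets, all lower in antibody-treated than in untreated cells and none called. Its brightest read 7.61, 6.92 and 6.22 with the antibody, 6.76, 7.34 and 7.16 with HGF/SF1, and 7.96, 7.15 and 7.10 untreated. The spread within conditions was wide and the groups overlapped, and the 95% interval of the difference from untreated cells ran from -1.33 to 0.35 (adjusted p = 0.696).

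The promoter window of Fbxl15, shown as the second largest difference among the lower members, lies at chr19:46327934-46328183 on the plus strand, and its capitals mark GGGCGG, read from the opposite strand. A second RefSeq start gives nearly the same window.
Fbxl15: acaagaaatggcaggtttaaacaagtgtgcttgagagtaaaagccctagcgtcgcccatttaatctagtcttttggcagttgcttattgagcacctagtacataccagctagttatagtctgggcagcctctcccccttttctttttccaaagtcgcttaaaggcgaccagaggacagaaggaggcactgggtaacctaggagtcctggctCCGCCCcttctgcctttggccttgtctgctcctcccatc

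Among the 22 F-box proteins with other domains, 3 were called lower (Fbxo9, Fbxo25 and Fbxo45) and 2 higher (Fbxo3 and Fbxo31) in antibody-treated cells (22.7% in all, beside 12.6% of all genes). Fbxo25, which recognises cardiac transcription factors in mouse, read 8.02, 7.71 and 7.20 with the antibody, 8.65, 8.09 and 8.11 with HGF/SF1, and 8.27, 8.38 and 8.06 untreated. The antibody arrays were below all others, that of experiment 1 only just (log2 fold change -0.59, SE 0.23, adjusted p = 0.367). Fbxo45, which works with the ligase Mycbp2 in place of Cul1, read 7.50, 7.01 and 7.05 with the antibody, 7.63, 7.30 and 7.42 with HGF/SF1, and 7.88, 7.52 and 7.41 untreated. Experiment 1 was highest in all 3 conditions, so that the groups overlapped although the difference was negative in each experiment (log2 fold change -0.41, SE 0.18, adjusted p = 0.413, and adjusted p = 0.0972 with the experiment as a block). The call of Fbxo45 was the least stable, kept in 7 of 19 alternatives (log2 fold change -0.57 to -0.25), and that of Fbxo25 was kept in 12 (-0.78 to -0.37). Of single arrays, the untreated one of experiment 1 or 2 and the antibody one of experiment 2 or 3 ended the call of either gene when left out, and for Fbxo45 also the HGF/SF1 array of experiment 2 or 3. Centring the arrays on their medians ended both calls too, and quantile normalization that of Fbxo45.

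Fbxo31, which recognises cyclin D1 after DNA damage in human cells, was one of the higher genes. It read 8.21, 8.55 and 9.04 with the antibody, 8.46, 8.09 and 8.29 with HGF/SF1, and 7.89, 7.88 and 8.03 untreated. The untreated arrays were the lowest, below all arrays of both treatments, and the antibody and HGF/SF1 arrays overlapped. The antibody difference was 1.59-fold (log2 fold change 0.67, SE 0.20, adjusted p = 0.257 by limma). The HGF/SF1 difference was 0.35 (95% interval -0.11 to 0.81, adjusted p = 1), and that between antibody and HGF/SF1 was 0.32 (-0.14 to 0.78, adjusted p = 0.574), so neither was called. The antibody call was kept without each single array and lost without the whole of experiment 2 (log2 fold change 0.45 to 0.86 over the alternatives).

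The Fbxo31 window at chr8:121578807-121579056, on the minus strand, is shown because it holds 4 copies of GGGCGG, in capitals.
Fbxo31: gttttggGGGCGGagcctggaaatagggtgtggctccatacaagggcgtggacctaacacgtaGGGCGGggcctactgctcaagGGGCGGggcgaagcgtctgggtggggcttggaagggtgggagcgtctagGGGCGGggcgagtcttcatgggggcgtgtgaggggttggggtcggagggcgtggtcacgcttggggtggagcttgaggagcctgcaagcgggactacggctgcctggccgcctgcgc

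Fbxo3, which recognises another F-box protein, Fbxl2, read 8.53, 9.49 and 8.79 with the antibody, 8.15, 8.23 and 8.01 with HGF/SF1, and 8.01, 8.24 and 8.07 untreated on its brightest probe set. The antibody arrays were above all others (1.78-fold, log2 fold change 0.83, SE 0.22, adjusted p = 0.218 by limma). Its other 3 probe sets did not all follow it. A probe set with a mean of 5.18 was called higher, by 0.86 (adjusted p = 0.322), one with a mean of 7.79 was called lower, by -0.37 (adjusted p = 0.319), and one with a mean of 5.17 differed by -0.16 and was not called (adjusted p = 0.839). With all probe sets of the gene averaged, the difference was 0.29 and no longer called, so the call of Fbxo3 depends on the probe set.

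The 17 uncalled genes of this group differed from untreated cells by -0.54 (Fbxo33) to 0.53 (Fbxo32, the muscle atrophy ligase). Fbxo33 and Fbxo38 were called with the experiment as a block, Fbxo33 at -0.54 (adjusted p = 0.254 with the block) and Fbxo38 at 0.36 (adjusted p = 0.273 with the block). A second probe set of Fbxo33 was called without the block (-0.66, adjusted p = 0.218). The 5 dimmest members, Fbxw14, Fbxo43, Cul9, Fbxo16 and Fbxo17, had mean values of 3.49 to 3.99 and differed by -0.18 to 0.04.

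None of the 9 F-box proteins with WD40 repeats was called on its brightest probe set. Their differences ran from -0.60 (Fbxw7) to 0.30 (Fbxw11). Fbxw7, the receptor of cyclin E, Myc and Notch, read 6.35, 6.38 and 5.80 with the antibody, 6.24, 6.64 and 6.99 with HGF/SF1, and 6.44, 6.54 and 7.34 untreated. All its antibody arrays were under all its untreated arrays (adjusted p = 0.483), and its dimmer probe set, which carries the suffix of sets that can match several transcripts, was called at -0.79 (SE 0.19, adjusted p = 0.196). Fbxw11 and Btrc, the pair that recognises phosphorylated IκB and β-catenin, differed by 0.30 (adjusted p = 0.545, and called with the block, where it was 0.263) and 0.12 (adjusted p = 0.761). Fbxw11 had the highest mean value of all members, 11.17, on a probe set that can also match other sequences.

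**Figure D2:**
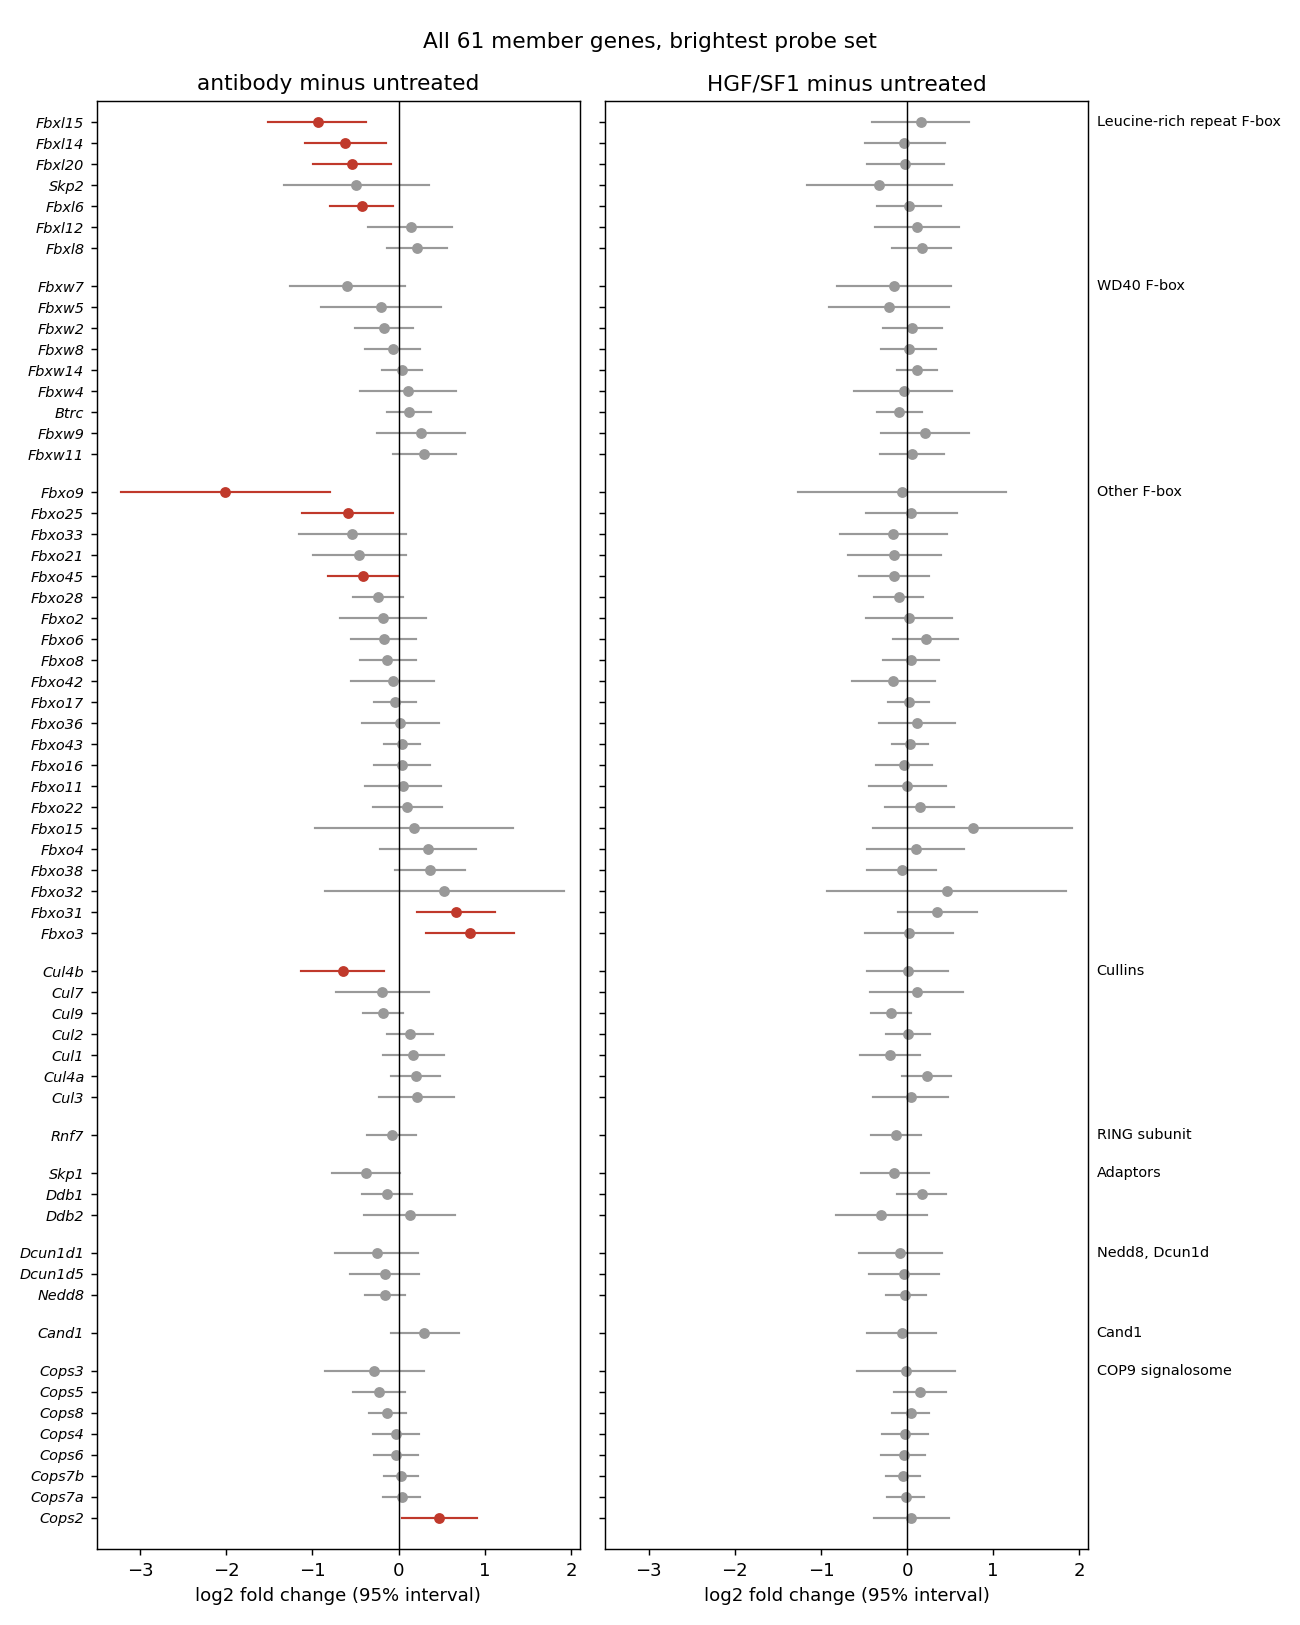
Log2 fold change of the brightest probe set of all 61 members (horizontal axis) with its 95% interval in limma, antibody minus untreated on the left and HGF/SF1 minus untreated on the right, by role (rows). Genes at an unadjusted p under 0.05 are in colour: 11 in the left panel and 0 in the right.

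Outside the F-box proteins, 2 of 23 members were called (8.7%), beside 9 of the 38 F-box proteins (23.7%) and 12.6% of all genes, and the difference between these shares was not tested. The first was Cul4b, the scaffold of ligases with the adaptor Ddb1. It read 8.66, 8.38 and 7.99 with the antibody, 9.36, 8.91 and 8.74 with HGF/SF1, and 9.04, 9.09 and 8.85 untreated. The antibody arrays were the lowest of the 9 and overlapped with no other group (1.57-fold lower, log2 fold change -0.65, SE 0.21, adjusted p = 0.278 by limma). Its second probe set read the other way, at 8.01, 8.87 and 8.64 with the antibody, 8.68, 7.86 and 7.80 with HGF/SF1, and 8.01, 7.94 and 7.77 untreated. That difference was 0.60 (95% interval -0.04 to 1.24, adjusted p = 0.461), and with both averaged Cul4b differed by -0.03 and was not called.

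The other cullins differed by -0.19 to 0.21 from untreated cells, and none was called. Cul1, the scaffold of the F-box ligases, differed by 0.17 (95% interval -0.18 to 0.53), Cul2 by 0.13 (-0.13 to 0.40), Cul3 by 0.21 (-0.23 to 0.64), Cul4a by 0.20 (-0.09 to 0.48) and Cul7 by -0.19 (-0.73 to 0.35). All of these intervals lie within 1 log2 unit of 0. A dimmer probe set of Cul3, the scaffold for BTB receptors, was called at -0.62 (SE 0.18, adjusted p = 0.238).

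On their brightest probe sets, Skp1, which all Cul1 ligases with F-box proteins share, Nedd8, the RING subunit Rnf7 and the Cul4 partners Ddb1 and Ddb2 were not called. Skp1 read 10.67, 10.49 and 10.53 with the antibody, 10.96, 10.68 and 10.73 with HGF/SF1, and 10.82, 10.66 and 11.33 untreated. The highest antibody array lay just above the lowest untreated one, and the difference was -0.38 (95% interval -0.77 to 0.02, adjusted p = 0.454). Its second probe set differed by -0.41 and was called lower in the fit with the block (adjusted p = 0.245 there), as was Skp1 when its probe sets were averaged. Nedd8 differed by -0.16 (-0.39 to 0.07), its co-ligases Dcun1d1 and Dcun1d5 by -0.25 and -0.16, Rnf7 by -0.08 (-0.37 to 0.20), Ddb1 by -0.13 (-0.42 to 0.15) and the DNA damage receptor Ddb2 by 0.13 (-0.40 to 0.66). The 4 probe sets that Rbx1 shares with its pseudogene differed by -0.03, -0.64, 0.07 and -0.05, and none was called.

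Cand1 read 9.19, 9.75 and 9.51 with the antibody, 8.95, 9.21 and 9.20 with HGF/SF1, and 8.94, 9.38 and 9.22 untreated. Experiment 1 was lowest in each condition, and the difference of 0.30 was called with the experiment as a block (there, adjusted p = 0.165). A probe set of Cand1 with a mean of 4.53 went the other way and was called at -0.68 (SE 0.17, adjusted p = 0.212).

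Of the 8 signalosome subunits, Cops2, which docks the complex on the cullin, was called. It read 10.79, 11.04 and 11.40 with the antibody, 10.92, 10.42 and 10.63 with HGF/SF1, and 10.66, 10.39 and 10.75 untreated. The antibody arrays were above all untreated arrays, while the HGF/SF1 array of experiment 1 lay among them (1.39-fold, log2 fold change 0.47, SE 0.19, adjusted p = 0.38 by limma). Its second probe set was called as well, at 0.61 (SE 0.17, adjusted p = 0.236). The call on the brightest probe set was kept in 12 of 19 alternatives, with log2 fold changes from 0.31 to 0.65. Single arrays that ended it when left out were the untreated ones of experiments 1 and 2, the antibody ones of experiments 2 and 3, and that of experiment 3 with HGF/SF1. The other 7 subunits differed by -0.28 (Cops3) to 0.04 (Cops7a), with -0.03 for Cops6, and none was called.

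**Figure D3:**
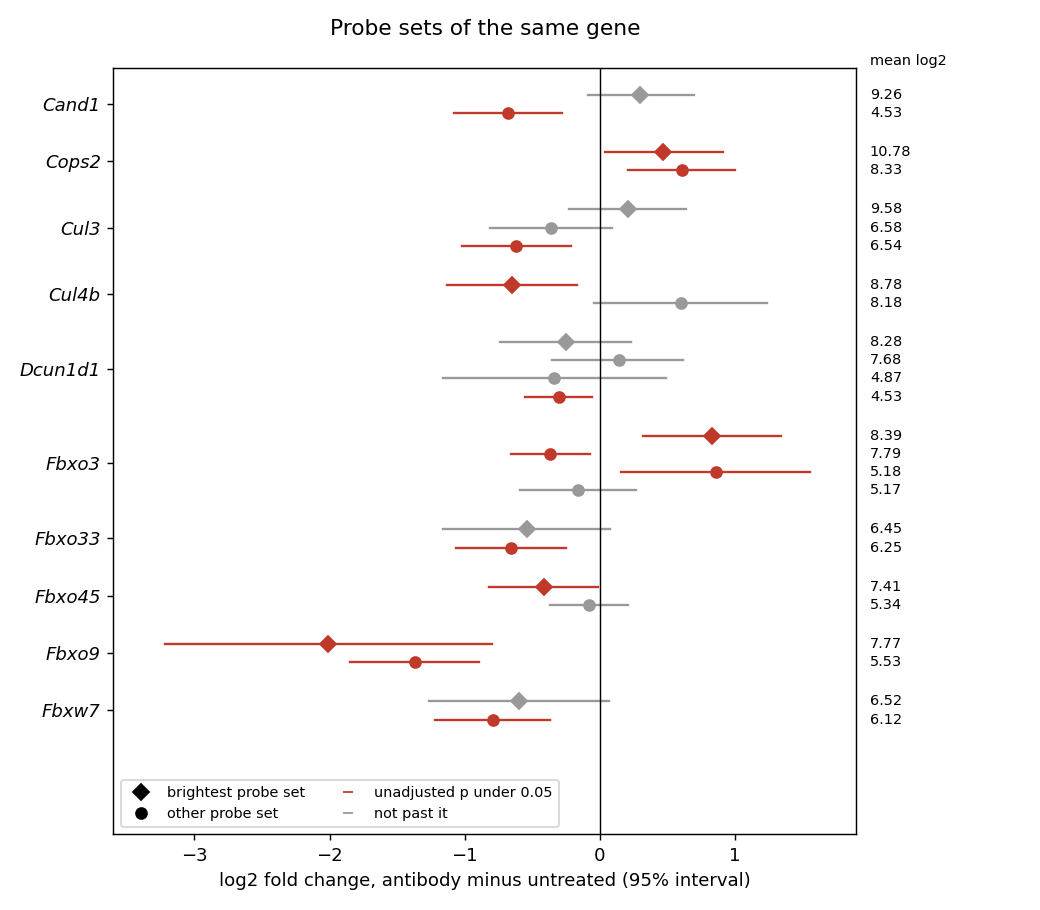
Log2 fold change, antibody minus untreated (horizontal axis), with its 95% interval in limma for every probe set of the 10 genes that have several and at least 1 called; diamonds are the brightest probe set, circles the others, colour an unadjusted p under 0.05, and the numbers at the right mean log2 values. Fbxo9 and Cops2 are called alike by both of their probe sets, while those of Fbxo3, Cul4b, Cul3, Cand1 and Dcun1d1 lie on both sides of 0.

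Probe sets of the same gene did not always move alike. Of the 105 member probe sets, 20 were called between antibody-treated and untreated cells (19%, 5 higher and 15 lower), beside 11.8% of all probe sets, 4.53% higher and 7.29% lower. Of the 29 members with more than 1 probe set, 10 had a called one, and in 5 of these (Cand1, Cul3, Cul4b, Dcun1d1 and Fbxo3) the probe sets pointed both ways. Fbxo3 was the only member with calls in both directions. For Fbxo33, Fbxw7, Cul3, Cand1 and Dcun1d1 only a probe set other than the brightest was called, each lower, by -0.66, -0.79, -0.62, -0.68 and -0.30.

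The antibody differences were not equal in the 3 experiments. For 10 of the 11 called members (90.9%) the difference from untreated cells was smallest in experiment 1, and for Fbxo45 it was smallest in experiment 3. The same held for 1105 of the 1562 called genes of the whole array (70.7%). Over the 11 members the median size of the difference was 0.30 in experiment 1, 0.67 in experiment 2 and 0.86 in experiment 3 on the log2 scale. Fbxl6 differed by 0.02 in experiment 1, the one difference of opposite sign among the 11 genes, and Fbxl14 by -0.02. Without the antibody array of experiment 1, 18 of the 61 members were called, beside 18.7% of all genes, and 5 passed the adjusted threshold by limma, beside 5.08% of all genes: Fbxo9 (-2.75, adjusted p = 0.00104), Fbxl15 (-1.24, adjusted p = 0.00976), Fbxl14 (-0.85, adjusted p = 0.0225), Fbxo3 (1.03, adjusted p = 0.0348) and Fbxo31 (0.86, adjusted p = 0.037). Experiment 1 had shown the smallest differences, so the values without its antibody array are no separate support for these 5 genes. Fbxo3 is read here by its brightest probe set alone. Without the antibody array of experiment 2, 6 of the 61 members were called, beside 7.4% of all genes. Without that of experiment 3 it was also 6 of the 61, beside 9.41%. Without the whole of experiment 2 only Fbxo3 was called, beside 3.89% of all genes.

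**Figure D4:**
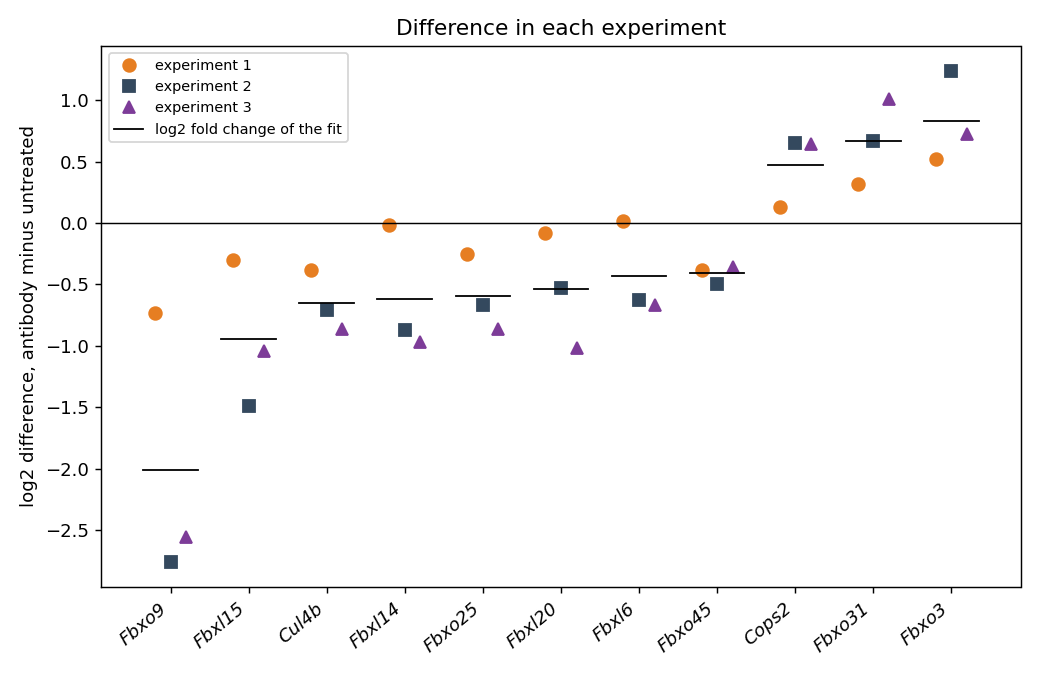
Log2 difference, antibody minus untreated (vertical axis), of the 11 called members (horizontal axis) in each experiment, with the fitted log2 fold change as a line. Experiment 1 lies closest to 0 for all but Fbxo45, and in it Fbxl14 (-0.02) and Fbxl6 (0.02) did not differ between the conditions by more than 0.02.

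HGF/SF1 gave no call. Of the 61 members, 0 passed an unadjusted p under 0.05 in limma against untreated cells, beside a background of 0.839% of all genes. The block of experiments gave 0 as well, beside 1.66%. The median log2 fold change was 0.01, and the 95% intervals reached 0.20 to 1.39 to either side of the estimate, with a median of 0.40. The arrays did not overlap for 3 members (4.92%, beside 3.94% of all genes): Fbxo31, Fbxw9 (0.21, adjusted p = 1) and Cul4a (0.23, adjusted p = 1). The largest difference was that of Fbxo15, at 6.14, 3.91 and 4.47 with HGF/SF1 and 4.04, 3.83 and 4.37 untreated. It rested on the HGF/SF1 array of experiment 1 (log2 fold change 0.76, SE 0.50, adjusted p = 1). Fbxo32 read 8.24, 7.11 and 6.04 with HGF/SF1 and 6.13, 6.54 and 7.35 untreated, a spread wider than its difference of 0.46 (adjusted p = 1).

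Set directly against HGF/SF1, the antibody gave 13 called members (21.3%, beside 14.1% of all genes), 10 lower and 3 higher, beside 8.96% and 5.19% of all genes. No member passed the adjusted threshold (0.0242% of all genes did), where the smallest adjusted p was 0.142 by limma, and the arrays did not overlap for 12 members (19.7%, beside 14.5%). With the experiment as a block 15 were called (24.6%, beside 20.3% of all genes), 11 of them among the 13, without Fbxo6 and Ddb1, and the 4 gained were Fbxo45 (-0.26), Btrc (0.22), Cand1 (0.37) and Cops2 (0.42). This comparison shares its antibody arrays with the one against untreated cells, and 8 members were called in both, 7 lower (Fbxo9, Fbxl15, Cul4b, Fbxl14, Fbxo25, Fbxl20 and Fbxl6) and Fbxo3 higher. Their log2 fold changes against HGF/SF1 were -1.95, -1.10, -0.66, -0.59, -0.64, -0.52 and -0.45, and 0.81 for Fbxo3. The calls of Fbxo3 and Cul4b depend on the probe set here too. Other probe sets of Fbxo3 differed from HGF/SF1 by 0.96 (called higher), -0.39 (called lower) and -0.4 (not called). The second probe set of Cul4b differed by 0.39 and was not called. With probe sets averaged, neither gene was called against HGF/SF1 (0.25 for Fbxo3 and -0.13 for Cul4b).

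The other 5 called members differed between the 2 treatments, while none of them was called between either treatment and untreated cells. Cops5, the subunit of the signalosome that cuts Nedd8 off, read 10.07, 10.18 and 10.29 with the antibody, 10.82, 10.37 and 10.49 with HGF/SF1, and 10.46, 10.40 and 10.37 untreated. Its antibody arrays were below all others (log2 fold change against HGF/SF1 -0.38, SE 0.13, adjusted p = 0.266, and against untreated -0.23, adjusted p = 0.565). The difference from HGF/SF1 was -0.75 in experiment 1 and -0.19 in experiments 2 and 3. The call of Cops5 was lost without the HGF/SF1 array, the antibody array or the whole of experiment 1. Cul1 read 9.08, 9.09 and 8.90 with the antibody, 8.31, 8.79 and 8.85 with HGF/SF1, and 8.73, 8.86 and 8.96 untreated. Its HGF/SF1 array of experiment 1 was the lowest, and the antibody arrays were above all HGF/SF1 arrays (0.38, SE 0.15, adjusted p = 0.347).

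Fbxo38 read 8.22, 8.55 and 8.33 with the antibody, 7.94, 7.76 and 8.12 with HGF/SF1, and 7.68, 8.03 and 8.29 untreated, with antibody above HGF/SF1 arrays throughout (0.42, SE 0.18, adjusted p = 0.351). Ddb1 read 11.02, 10.91 and 11.06 with the antibody, 11.51, 11.15 and 11.23 with HGF/SF1, and 10.98, 11.19 and 11.21 untreated (-0.30, SE 0.12, adjusted p = 0.355, not called with the block or with centred arrays). Fbxo6, which recognises glycoproteins, read 8.70, 8.65 and 9.01 with the antibody, 9.39, 9.12 and 9.01 with HGF/SF1, and 8.96, 9.19 and 8.72 untreated (-0.39, SE 0.16, adjusted p = 0.366, not called with the block or with centred arrays). The calls of these 5 genes varied in how well they held against HGF/SF1. Over the 19 alternatives Cops5 kept its call in 16, Cul1 and Fbxo38 in 11 each, Fbxo6 in 8 and Ddb1 in 6. Without the antibody array of experiment 2 there were 7 members called against HGF/SF1, beside 8.63% of all genes, without that of experiment 3 also 7, beside 11.7%, and without that of experiment 1 there were 16, beside 19.3%.

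Receptors and enzymes that work with the same cullins were counted beside the members. Between antibody-treated and untreated cells 2 of 31 elongin and SOCS-box proteins, which serve Cul2 and Cul5, were called higher and 3 lower (16.1%, beside 12.6% of all genes), led by Asb13. Asb13 read 6.20, 5.36 and 5.52 with the antibody, 6.90, 7.10 and 6.73 with HGF/SF1, and 7.49, 7.31 and 6.66 untreated, 2.75-fold lower with no overlap (log2 fold change -1.46, SE 0.27, adjusted p = 0.157 by limma), and its 3 probe sets were all lower. Of 26 BTB receptors of Cul3, 2 were called higher (Klhl5 at 0.84 and Klhl22 at 0.53) and 2 lower (Klhl42 at -0.75 and Kctd10 at -0.48), 15.4% in all, and of 19 DCAF receptors of Cul4, 1 higher (Dcaf1 at 0.36) and 2 lower (Brwd1 at -0.94 and Dcaf11 at -0.40), 15.8% in all. Without the block, the shares of these 3 lists lie near that of all genes. With the experiment as a block they were 22.6%, 23.1% and 31.6% in the same order, beside 18.5% of all genes. The difference between these shares was not tested. None of 3 Nedd8 enzymes, 14 enzymes that carry or help to pass on ubiquitin, and 3 F-box proteins of other names was called. With the experiment as a block 1 of the Nedd8 enzymes (33.3%) and 1 of the 14 enzymes (7.14%) were called, both higher, beside 18.5% of all genes. Of 17 subunits and partners of the anaphase-promoting complex, a relative of the cullin ligases, only Anapc1 was called (0.36, 5.88% of the list). With the experiment as a block it was 4, all higher (23.5%, beside 18.5% of all genes). HGF/SF1 gave no call in any of these lists against untreated cells in limma without the block.

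Of 34 genes whose proteins are known substrates of these ligases, 7 were called higher and 1 lower in antibody-treated cells (23.5%, beside 12.6% of all genes). With the experiment as a block it was 10 higher and 2 lower (35.3%, beside 18.5% of all genes). The median log2 fold change was 0.12, and 0 passed the adjusted threshold of limma. This list was chosen with earlier results of these data known, and the study had already reported Hif1a as higher. Its share is therefore no test of the substrates. Nfkbia, which encodes the IκB that Btrc and Fbxw11 recognise, read 11.92, 11.87 and 11.74 with the antibody, 10.29, 10.74 and 10.79 with HGF/SF1, and 10.07, 10.71 and 11.05 untreated (2.35-fold, log2 fold change 1.23, SE 0.24, adjusted p = 0.17). Hif1a, the substrate of the Cul2 receptor Vhl, read 10.76, 11.88 and 11.51 with the antibody, 10.40, 10.40 and 10.43 with HGF/SF1, and 10.25, 10.28 and 10.57 untreated (2.02-fold, 1.02, SE 0.25, adjusted p = 0.199). In both genes the antibody arrays were above all others, and all 4 probe sets of each were higher. Cdkn1c, a cell cycle inhibitor, was higher by 0.72 (SE 0.14, adjusted p = 0.162), and Ireb2, an iron regulatory protein, lower by 0.67 on the log2 scale (SE 0.14, adjusted p = 0.175). These are transcript values and say nothing of the proteins that the ligases act on.

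Promoter windows of 250 bases were held for 45 of the 61 members, 62 windows in all. GGGCGG on either strand was found in 37 of them (59.7%, against 32.7% of 32851 windows of all genes), CCGGAA in 18 (29%, against 12%), CCAAT in 11 (17.7%, against 33.8%) and CACGTG, the E-box, in 3 (4.84%, against 6.02%). The 5 lower members with a window had 7 of them, with GGGCGG in 4, CCGGAA in 1, CCAAT in 3 and CACGTG in 0. Several windows belong to the same gene and overlap, and these shares are descriptions of sequence.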

How the data were processed

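The deposited values were used as they stand. They are log2 values, 1 for each probe set and array, made by the authors in affylmGUI from all 9 arrays together with rma background correction, and the step between arrays is not given in the sources used here. The intensities behind them were not reprocessed. Samples were assigned by title to conditions and to experiments, numbered in accession order, and the shared day in the titles and the study's methods pair the conditions. After condition means were removed, arrays of 1 experiment correlated at 0.0958 to 0.591 (9 pairs), and arrays that share neither at -0.484 to 0.0308 (18 pairs).

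After 64 of 22690 probe sets were left out as controls, 20380 named 1 gene, 691 several and 1555 none; 20351 matched RefSeq (GRCm38.p6), as did all 61 members. A mean per condition was fitted to all probe sets with limma 3.58.1 in R 4.3.3 (eBayes, 6 residual degrees of freedom, prior 2.39, two-sided), without the experiment, which the study's methods do not mention as a term. The number of arrays limits the precision. The script was tested on simulated data. Named genes are members called in any comparison, the shared core, members whose probe sets disagree with 1 called, the 5 brightest and 5 dimmest, and up to 4 genes per further list. Members and lists were chosen with earlier results of these data known. Alternatives were the experiment as a fixed or random block, centred or quantile-normalized arrays, bright probe sets, a trend prior, mean probe sets, the adjusted threshold, and leaving out arrays or experiments.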

Additional observations from a re-analysis of the deposited data

How the results depend on the processing

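The count of members called between antibody-treated and untreated cells was 11 of 61 (18%), beside 12.6% of all genes. It was 0 with an adjusted p under 0.05 in limma, beside 0.0403%. Leaving out arrays or whole experiments gave 1 (without experiment 2, beside 3.89%) to 18 (without the antibody array of experiment 1, beside 18.7%). Between antibody and HGF/SF1 the count was 13 of 61 (21.3%), beside 14.1% of all genes, and 0 with the adjusted p, beside 0.0242%. It was 3 (without experiment 2) to 18 (without experiment 1) when arrays or experiments were left out. The shares of all genes under those settings are not given here. Without the antibody array of experiment 2 it was 7, beside 8.63% of all genes, and without that of experiment 1 it was 16, beside 19.3%. Between HGF/SF1 and untreated cells the count was 0, beside 0.839% of all genes. It was 0 to 1 when arrays or experiments were left out, the 1 being Cul9, Fbxo15, Ddb2 or Fbxo31. The shares of all genes under those settings are not given here either, so these counts have no background beside them. The experiment as a fixed block gave 15 calls (24.6% of members) for the antibody against untreated cells, beside 18.5% of all genes. It gave 15 (24.6% of members) for the antibody against HGF/SF1, beside 20.3% of all genes. For HGF/SF1 against untreated cells it gave 0, beside 1.66% of all genes. The block gained Fbxo33, Fbxo38, Fbxw11 and Cand1 for the antibody against untreated cells. Against HGF/SF1 it gained Fbxo45, Btrc, Cand1 and Cops2 and lost Fbxo6 and Ddb1. Centred arrays lost Fbxo25 and Fbxo45 and gained Fbxo38 against untreated cells, and lost Fbxo6 and Ddb1 against HGF/SF1. Quantile normalization lost Fbxo45 and gained Fbxo38 against untreated cells, and gained Btrc against HGF/SF1. Of 3456 values of the 61 members under the alternatives, 3267 kept their side of the threshold. A call was lost in 118 and gained in 71, and 0 called values turned. Most of the 3267 belong to members that the main fit did not call, so they say little of how well calls held. Calls were kept in 19 of 19 alternatives (Fbxl15 against HGF/SF1) down to 6 (Ddb1 against HGF/SF1). The causes were not tested. With 3 arrays a condition and 95% intervals that reached 0.40 (median) to either side, smaller differences were not detectable in many members.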
